A study of Sus scrofa with 3 samples.

Results

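The genes described here are those of the solute carrier (SLC) families that move amino acids across membranes: SLC1, SLC3, SLC6, SLC7, SLC36, SLC38 and SLC43. They were chosen by gene name alone, and 56 of the 30477 genes in the deposited table carried such a name. The samples are 3 cultures of adipose mesenchymal stem cells (MSC, stromal cells that can form fat, bone and cartilage) from adult pigs, whose RNA was sequenced in a study of MSC transplantation for narrowed dialysis fistulas. All 3 samples belong to a single group with no treatment or genotype named, and the medium, advanced MEM with human platelet lysate, was shared by all. Whether the cultures come from different pigs is not stated, so differences between them may be biological or technical. The cultures are numbered 1, 2 and 3 as in their labels.

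Amino acid carriers supply cells with the material for protein, glutathione and nucleotide synthesis. Sodium-coupled carriers such as those of SLC38 pull neutral amino acids into the cell against a gradient. Exchangers such as SLC1A5 and the SLC7 light chains then trade these for others, and the light chains reach the cell surface only when bound to a heavy chain, SLC3A2 (also called CD98 or 4F2hc) or SLC3A1. The roles given below are known mainly from human and rodent cells. Not all 56 genes work at the cell surface or on amino acids: SLC36A1, SLC38A7 and SLC38A9 are mostly lysosomal, SLC6A17 sits on synaptic vesicles, SLC43A3 carries nucleobases, and SLC6A2, SLC6A3 and SLC6A4 carry monoamines.

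The libraries held 51788677, 62248183 and 64774044 reads over genes in cultures 1, 2 and 3. Protein-coding genes took 70.3%, 88.6% and 88.8% of them and small non-coding RNAs 28.3%, 9.12% and 8.36%, so the library of culture 1 stood apart in composition. Levels are RPKM, the read counts divided by gene model length and by the library's reads over genes, which allows genes to be compared within a library. A count of 0 over a gene model of 2 kb allows up to 3 reads, or 0.029, 0.024 and 0.023 RPKM in the 3 cultures, a limit from counting error alone. All 7 mesenchymal markers, such as PDGFRA, THY1 and COL1A1, were above 1 RPKM in the limma test. Markers of other cell types were mostly below: 4 of 5 endothelial, 5 of 5 macrophage, 4 of 4 lymphocyte, 4 of 4 measured epithelial, 5 of 5 adipocyte and 4 of 5 measured neural ones. Fewer cells of a type and less RNA per cell cannot be told apart in such bulk samples.

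A small number of carriers made up most of the transporter RNA. Of the 56 genes, 19 were called above 1 RPKM and 32 below it (limma on log2(RPKM + 0.5), Benjamini-Hochberg adjusted p under 0.05 over 29479 genes with a read), and 5 were not decided. By the mean RPKM itself, with no test, 20 were at 1 RPKM or more and 36 under it. Over all genes tested, 30.6% were above and 60.8% below, and over protein-coding genes 42% and 47.8%, against 33.9% and 57.1% of the transporters. The share of carriers above 1 RPKM was thus near that of all genes tested. It was lower than that of protein-coding genes, the type to which all 56 belong. The median of their mean log2(RPKM + 0.5) was -0.61, between -0.68 for all genes with a read and 0.34 for protein-coding ones. Summed over the 56 genes the level was 319, 439 and 380 RPKM in cultures 1, 2 and 3. SLC38A2, SLC3A2 and SLC1A5 together held 65.2%, 65.0% and 66.1% of it (65.4 ± 0.57%, SD, n = 3), so their joint share varied little between the cultures. The 32 genes below 1 RPKM held 0.73 ± 0.32%.

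**Figure D1:**
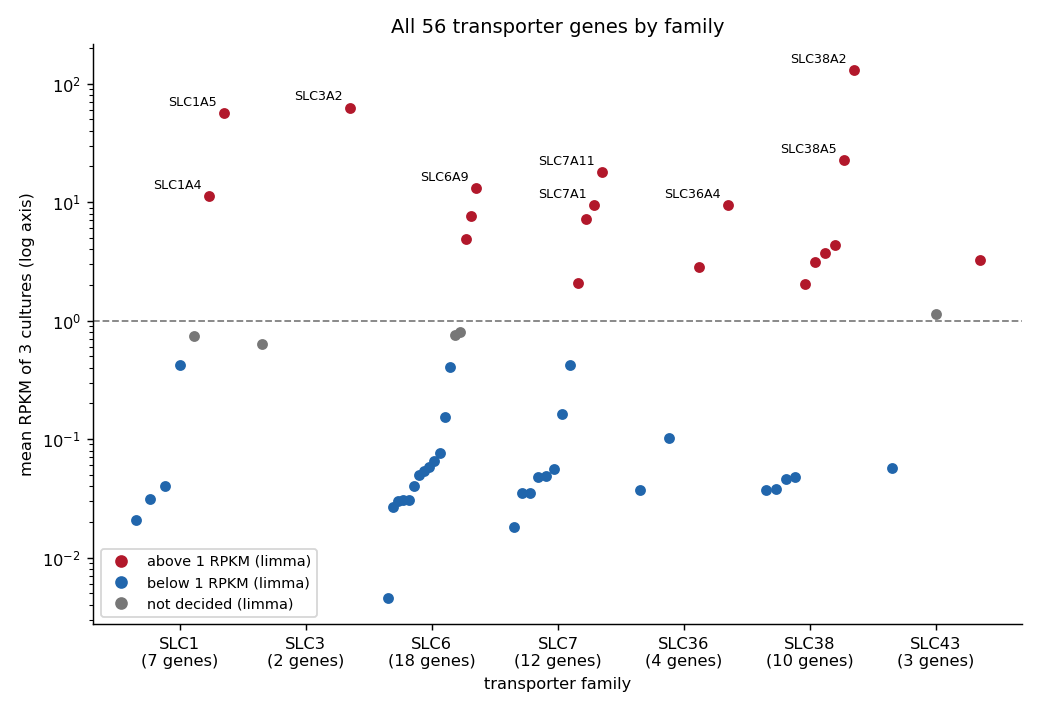
Each point is the mean RPKM of 1 transporter gene over the 3 cultures on a log axis, placed by family along the x axis and coloured by the limma test against 1 RPKM (dashed line). The 19 genes called above the line run up to SLC38A2 at 129 RPKM, and the 32 called below include 13 of the 18 SLC6 genes.

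The SLC38 family carries small neutral amino acids, above all glutamine, and took the largest share of the summed level, 43.8 ± 2.58% (SD, n = 3). SLC38A2 (SNAT2, a sodium-coupled carrier of system A that cells make more of when starved of amino acids; ENSSSCG00000000808, chromosome 5, 77113493 to 77127650 on susScr11) had 115, 137 and 137 RPKM in cultures 1, 2 and 3. It ranked 215th by mean among 20288 protein-coding genes, and its 3 values lay close together, with culture 1 slightly lower as deposited and slightly higher when scaled to protein-coding reads. SLC38A5 (SNAT5, a system N carrier of glutamine, glycine and serine; ENSSSCG00000025981, chromosome X, 42585013 to 42605511) had 19.4, 29.8 and 18.4 RPKM, and culture 2 was the highest. SLC38A2 exceeded it 5.90-, 4.59- and 7.44-fold within the 3 libraries.

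The remaining SLC38 genes fell into a middle and a low class. SLC38A7 (4.13, 4.52 and 4.27 RPKM), which exports glutamine from lysosomes, was among the steadiest genes, but its gene body overlaps CNOT1 at 38.1 RPKM. SLC38A9, the lysosomal arginine sensor that acts on the growth kinase complex mTORC1, had 3.52, 3.42 and 4.18 RPKM and overlaps PLPP1 at 13.7 RPKM. The libraries' strand setting is not given in the sources used here, so overlapping genes may share reads. Of the 56 genes, 21 overlap another gene of the table, 7 of them among the 19 above 1 RPKM. For 13 of the 56, and 4 of the 19, the overlapping gene had at least 50% as many reads as the transporter. SLC38A6 had 3.89, 3.13 and 2.43 RPKM and SLC38A10 had 1.49, 2.77 and 1.87 RPKM, all above 1 RPKM in every culture. SLC38A4, the other named system A gene, had 0.050, 0.057 and 0.0045 RPKM although it lies only 284 kb from SLC38A2 on chromosome 5. SLC38A3, SLC38A8 and SLC38A11 were likewise between 0.038 and 0.047 RPKM on average.

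SLC38A1 (SNAT1), a further system A carrier, was no member since the table gives its entry (ENSSSCG00000000807, chromosome 5, 77009862 to 77058427) no name and calls it a pseudogene. The symbol comes from a table of Ensembl IDs, and the gene was looked at after the values were seen. It had 8.68, 32.9 and 32.5 RPKM, so that SLC38A2 exceeded it 13.2-fold in culture 1 and 4.16- and 4.22-fold in cultures 2 and 3.

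The small neutral exchangers of the SLC1 family were both well expressed, and the glutamate carriers of that family were not. SLC1A5 (ASCT2, a main route of glutamine uptake in growing cells; ENSSSCG00000003105, chromosome 6, 52647432 to 52661459) had 38.2, 77.0 and 52.6 RPKM. SLC1A4 (ASCT1, an exchanger of serine, alanine and cysteine; ENSSSCG00000028282, chromosome 3, 76938105 to 76970508) had 8.82, 15.9 and 8.82 RPKM. Culture 2 was the highest for both, and SLC1A5 exceeded SLC1A4 4.33-, 4.86- and 5.97-fold within the libraries. Of the 5 glutamate and aspartate carriers, known from synapses, glia and the kidney, 4 were below 1 RPKM. SLC1A3 (GLAST), the glial carrier, had 0.664, 0.473 and 0.125 RPKM, and SLC1A1, SLC1A2 and SLC1A7 averaged between 0.021 and 0.040 RPKM. SLC1A6 (EAAT4) had 0.739, 1.11 and 0.381 RPKM and was not decided (limma, adjusted p = 0.22).

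SLC3A2, the heavy chain that most SLC7 light chains need, was the second most abundant of the 56 genes (ENSSSCG00000022404, chromosome 2, 8892089 to 8919072). It had 55.1, 71.8 and 61.5 RPKM in cultures 1, 2 and 3 (62.8 ± 8.45, SD, n = 3), a narrow range. SLC3A1 (rBAT), the heavy chain of the kidney and gut cystine carrier, had 0.136, 0.644 and 1.11 RPKM. It was not decided (limma, adjusted p = 0.052), and it overlaps PREPL at 10.6 RPKM. Without culture 3 it was below 1 RPKM (limma, adjusted p = 0.0017).

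Among the light chains, the cystine carrier led. SLC7A11 (xCT), which exchanges glutamate for the cystine that feeds glutathione synthesis (ENSSSCG00000022649, chromosome 8, 88607884 to 88940100), had 11.5, 16.4 and 25.4 RPKM. SLC7A5 (LAT1), which takes up leucine and other large neutral amino acids (ENSSSCG00000032996, chromosome 6, 1545940 to 1574288), had 4.24, 11.0 and 6.26 RPKM. Culture 3 was thus the highest for SLC7A11 and culture 2 for SLC7A5, while culture 1 was the lowest for both. Within a library, where no scaling between cultures enters, SLC7A11 exceeded SLC7A5 2.72-, 1.5- and 4.06-fold. The log2 ratio averaged 1.35 ± 0.72 (SD, n = 3) and was above 0 in 3 of 3 cultures.

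The third light chain above 1 RPKM was SLC7A7 (y+LAT1), which exports cationic amino acids, with 2.12, 1.86 and 2.21 RPKM. Its gene body overlaps several expressed genes, among them MMP14 at 178 RPKM and OXA1L at 16.9 RPKM. It passed the limma test with an adjusted p of 0.0047, but not when culture 3 was left out (adjusted p = 0.057). SLC7A8 (LAT2), the other large neutral light chain, had 0.260, 0.173 and 0.054 RPKM. SLC7A10 (Asc-1), a marker of mature white fat cells, had 0.093, 0.043 and 0.0082 RPKM, and SLC7A9 and SLC7A13, the kidney light chains that do not pair with SLC3A2, averaged 0.035 and 0.056 RPKM. SLC7A6 and SLC7A12 were not matched by name and were not analysed here.

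SLC3A2 exceeded the sum of its 5 measured light chains 3.02-, 2.44- and 1.81-fold in cultures 1, 2 and 3 (2.42 ± 0.61, SD, n = 3). SLC7A11 made up 63.2%, 55.7% and 74.9% of that sum and SLC7A5 23.3%, 37.2% and 18.4%. The sum ran from 18.2 RPKM in culture 1 through 29.5 in culture 2 to 33.9 in culture 3. The heavy chain was above the sum in each library, by least in culture 3, where SLC7A11 was highest. The light chain SLC7A6, not matched by name, is missing from the sum. The result also rests on gene model lengths, listed as 2149 bases for SLC3A2 and 11798 for SLC7A11. In reads, SLC7A11 alone had 7035, 12068 and 19416 in cultures 1, 2 and 3, and SLC3A2 6131, 9609 and 8558. These are levels of RNA and say nothing of how much protein is paired.

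**Figure D2:**
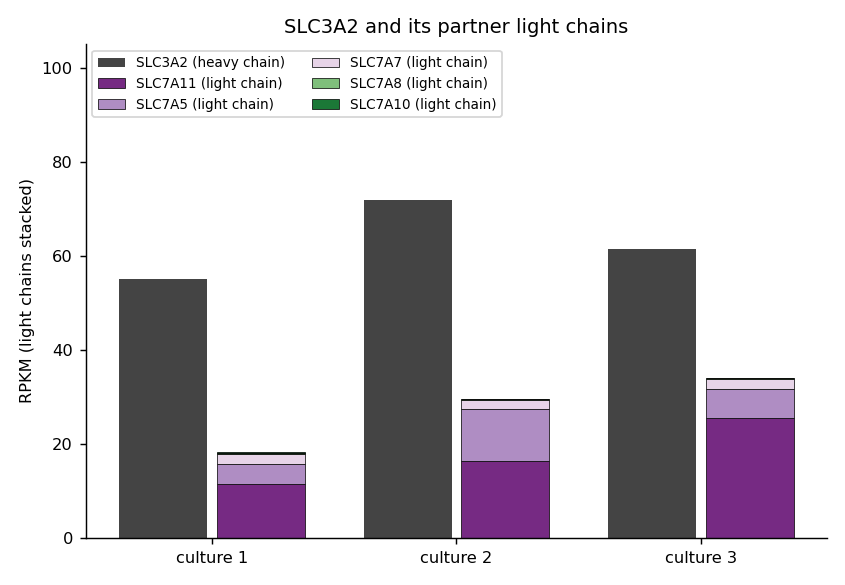
Bars show the RPKM of SLC3A2 (dark) beside the stacked RPKM of its 5 measured light chains in each culture, without SLC7A6. Each bar is 1 library and so has no error bar. SLC3A2 stands above the stack in all 3 cultures, and SLC7A11 fills most of each stack (55.7% to 74.9%).

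The cationic carriers of SLC7, which bring in arginine and lysine without a heavy chain, were represented by 1 gene. SLC7A1 (CAT1; ENSSSCG00000029456, chromosome 11, 6538055 to 6596878) had 7.30, 12.5 and 8.34 RPKM, with culture 2 the highest. SLC7A2 (CAT2), the form induced in activated macrophages, had 0.324, 0.504 and 0.437 RPKM and was below 1 RPKM (limma, adjusted p = 0.0020). SLC7A1 exceeded it 22.5-, 24.8- and 19.1-fold. SLC7A3, SLC7A4 and SLC7A14 averaged 0.049, 0.018 and 0.035 RPKM, and each was listed at 0 in culture 3.

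In the SLC6 family, the sodium- and chloride-coupled carriers best known from neurons and the kidney, 3 of 18 genes were above 1 RPKM and 13 below. SLC6A9 (GlyT1, the glycine carrier; ENSSSCG00000039770, chromosome 6, 167268957 to 167301599) was the highest with 10.2, 16.1 and 13.1 RPKM. SLC6A8, the creatine carrier, had 7.08, 7.01 and 8.89 RPKM, but part of its gene body overlaps the abundant proteoglycan gene BGN at 239.9 RPKM. SLC6A17 (NTT4), a vesicular carrier of neutral amino acids in neurons, had 5.51, 5.64 and 3.38 RPKM. All 3 were above 1 RPKM in every culture, and SLC6A17 was lowest in culture 3 under each scaling tried. Among the neural markers, RBFOX3 and GFAP averaged 0.028 and 0.019 RPKM. SNAP25 had 0.238, 0.287 and 0.741 RPKM and SYP 0.222, 0.574 and 1.5, both highest in culture 3.

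Members of SLC6 near 1 RPKM were not decided by the test. SLC6A6 (TauT), the taurine carrier, had 1.53, 0.373 and 0.384 RPKM, so that culture 1 stood apart from the others. Its adjusted p in limma was 0.17, and it was below 1 RPKM without culture 1 (adjusted p = 0.0019). SLC6A15, a carrier of branched-chain amino acids and proline, had 1.07, 0.516 and 0.830 RPKM (limma, adjusted p = 0.38). The carriers SLC6A11, SLC6A12 and SLC6A13, which take GABA or betaine, averaged between 0.041 and 0.152 RPKM. The glycine carrier of inhibitory neurons SLC6A5, the proline carriers SLC6A7 and SLC6A20, and the epithelial carriers SLC6A14, SLC6A18 and SLC6A19 averaged between 0.027 and 0.059 RPKM. Of the monoamine carriers, the serotonin carrier SLC6A4 had 0.291, 0.665 and 0.256 RPKM, SLC6A2 averaged 0.076 and SLC6A3 0.0046 RPKM.

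The carriers of the SLC36 family split in pairs. SLC36A4 (PAT4, a carrier of proline and tryptophan; ENSSSCG00000024933, chromosome 9, 25639387 to 25689028) had 9.59, 7.98 and 10.6 RPKM. SLC36A1 (PAT1), which exports amino acids from lysosomes, had 2.35, 3.08 and 3.03 RPKM, and SLC36A4 exceeded it 4.08-, 2.59- and 3.49-fold. SLC36A2, whose gene body overlaps that of SLC36A1 on chromosome 16, averaged 0.102 RPKM. SLC36A3, which overlaps SLC36A2 and GM2A, averaged 0.037 RPKM. In SLC43, SLC43A3 had 1.60, 5.61 and 2.56 RPKM, with culture 2 far above the others. SLC43A2 (LAT4), an exit route for branched-chain amino acids, had 1.37, 1.02 and 1.02 RPKM and was not decided (limma, adjusted p = 0.64). SLC43A1 (LAT3) averaged 0.057 RPKM and lies 54.6 kb from SLC43A3 on chromosome 2.

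**Figure D3:**
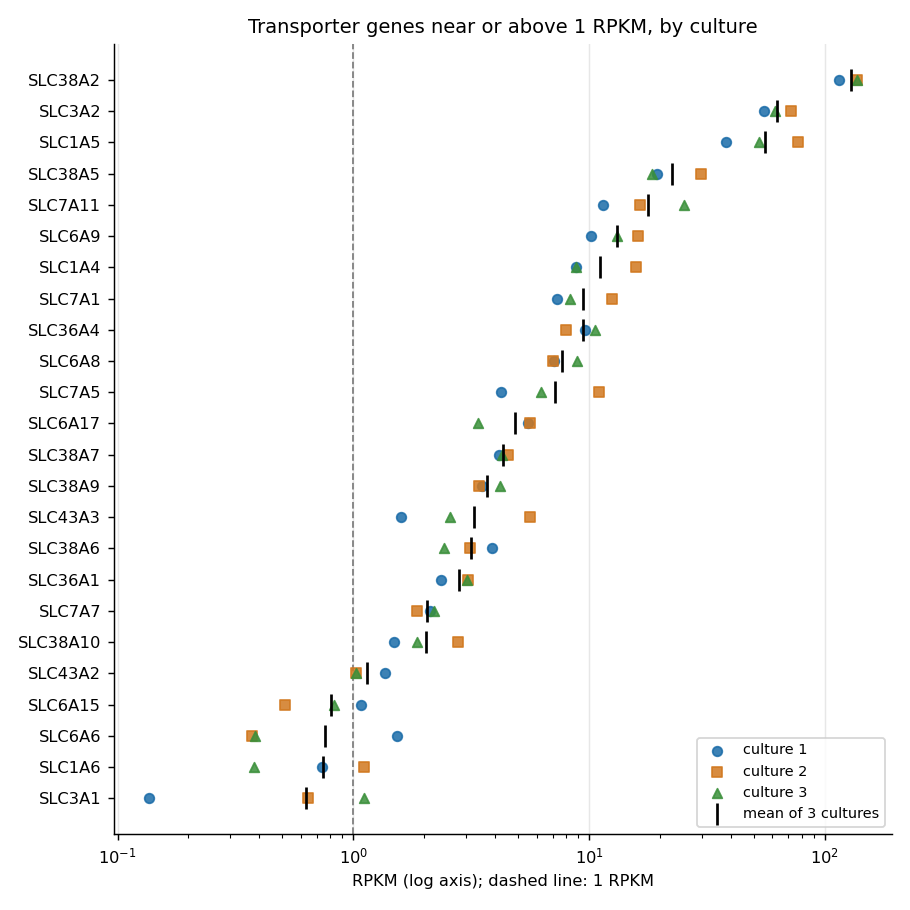
Points give the RPKM of each gene in each culture on a log axis, with the mean of the 3 cultures as a bar, for the 20 transporters with a mean of at least 1 RPKM and the 4 others that the limma test against 1 RPKM did not decide. SLC38A2 stands above SLC3A2 and SLC1A5, and these above SLC38A5, in all 3 cultures.

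Ranked by mean RPKM, the 20 transporters of at least 1 RPKM formed 19 neighbouring pairs, and the ranges over the cultures overlapped in 15 of them. The pairs that did not overlap were SLC38A2 above SLC3A2, SLC1A5 above SLC38A5, SLC36A1 above SLC7A7, and SLC38A10 above SLC43A2. The order held in each library for 9 of the 19 pairs. SLC3A2 and SLC1A5 changed places in culture 2, and SLC38A5 and SLC7A11 in culture 3. SLC7A1 and SLC36A4 had the same mean to 3 digits, 9.38 RPKM.

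No transporter passed the test for more variation between the cultures than other genes of its level. The variance of log2(RPKM + 0.5) was set against the limma trend over the 10474 genes that averaged 1 RPKM or more, and 0 genes passed an adjusted p of 0.05 (0%), so none of the 20 transporters did. At an unadjusted p under 0.05 there were 621 genes (5.93%) and 0 of the 20 transporters, and the smallest p among these was 0.069 in limma, for SLC43A3. With 3 cultures this does not show that the levels were the same.

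As a description with no test, 4 of the 20 transporters ranged at least 2-fold between the cultures, or 20%, against 27.5% of all genes that averaged 1 RPKM or more. They were SLC43A3 (3.52-fold), SLC7A5 (2.59-fold), SLC7A11 (2.21-fold) and SLC1A5 (2.02-fold). Without culture 1 only SLC43A3 did so and without culture 2 only SLC7A11. Culture 2 was the highest for 12 of the 20 transporters (60%, against 54.4% of all such genes) and culture 1 the lowest for 12 (60%, against 57%). Both shares were near the background. With median-of-ratios size factors culture 2 was the highest for 7 of the 20 (17.1% of all such genes) and culture 1 the lowest for 12 (55% of all such genes). Scaled to protein-coding reads the counts were 10 (40.8% of all such genes) and 6 (34.6% of all such genes).

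The order of the cultures depended on how the libraries were scaled. The median log2(RPKM + 0.5) of protein-coding genes that averaged 1 RPKM or more was 2.52, 2.91 and 2.73 in cultures 1, 2 and 3 as deposited. It was 2.99, 3.07 and 2.89 when scaled to protein-coding reads, and 2.50, 2.66 and 2.92 with median-of-ratios size factors. Only 4 of the 20 transporters had the same highest and the same lowest culture under all 3 scalings, and they were the same 4 that ranged 2-fold. Rescaling reorders a wide range less easily than a narrow one, so this match is no separate result. The same share over all genes was not computed, so the count is not a trait of the transporters. SLC7A11 was highest in culture 3 and lowest in culture 1, with a range of 1.75- to 2.58-fold over the scalings. SLC7A5 (2.06- to 2.59-fold), SLC43A3 (2.79- to 3.52-fold) and SLC1A5 (1.60- to 2.02-fold) were highest in culture 2 and lowest in culture 1. For SLC38A2 the highest culture was 3 as deposited and with size factors, with ranges of 1.20- and 1.40-fold, and 1 when scaled to protein-coding reads, with a range of 1.06-fold. The small RNA share was highest in culture 1 (28.3%), and its part in these ranges was not tested.

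**Figure D4:**
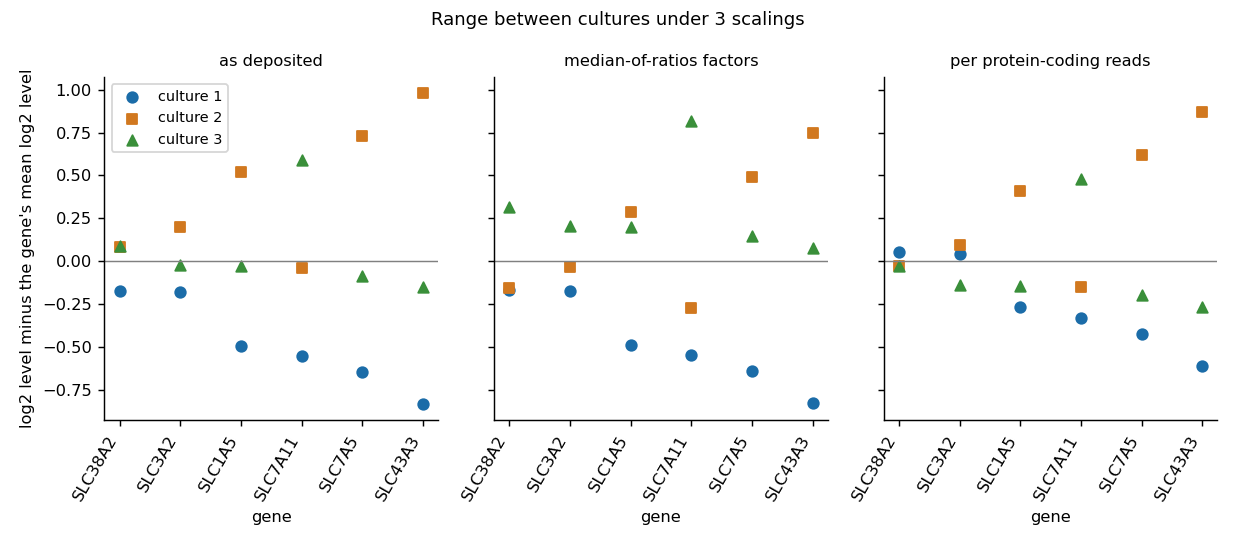
The y axis is the log2 level of a gene in a culture minus its mean log2 level over the 3 cultures, and each panel uses another scaling between libraries. The order of the cultures for SLC38A2 and SLC3A2 is not the same in all panels, while for SLC1A5, SLC7A11, SLC7A5 and SLC43A3 the highest and lowest cultures stay the same.

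The 32 transporters below 1 RPKM rested on few reads. Their median was 0.069, 0.058 and 0.012 RPKM in cultures 1, 2 and 3, or 13.5, 14.5 and 4 reads. Culture 3 was the lowest for 28 of the 32 (87.5%), against 70.6% of 17265 genes with a mean no higher than theirs. A gene at 0 in culture 1 or 2 could not count as lowest in culture 3. Such genes made up 12.1% of the 17265 and 0 of the 32, so the 2 shares are not fully alike. The 7 genes listed at 0 anywhere, SLC6A3, SLC6A18, SLC6A19, SLC7A3, SLC7A4, SLC7A13 and SLC7A14, were all at 0 in culture 3, where 3 reads would be 0.013 to 0.035 RPKM. They make up 21.9% of the 32, while 28.7% of those 17265 genes were at 0 in culture 3. Of the markers of endothelial, macrophage, lymphocyte, epithelial, adipocyte and neural cells, 26 were below 1 RPKM, and 21 of these were lowest in culture 3. The sum of a list was lowest in culture 3 for the lymphocyte markers (0.259, 0.154 and 0.032 RPKM) and the epithelial markers (0.856, 0.332 and 0.184 RPKM). Cultures 1 and 3 were nearly alike for the macrophage markers (0.415, 0.639 and 0.407 RPKM) and the endothelial markers (1.66, 3.22 and 1.58 RPKM). Most of the endothelial sum came from PECAM1 (1.31, 2.97 and 1.48 RPKM), which was above 1 RPKM and overlaps DDX5 at 89.2 RPKM. The macrophage marker CD68 was highest in culture 3 (0.135, 0.269 and 0.313 RPKM). The sum was highest in culture 3 for the adipocyte markers (0.373, 0.379 and 0.792 RPKM) and the neural markers (0.637, 0.952 and 2.27 RPKM). Among the 56 transporters, 12 pairs lie within 500 kb of each other, counting every pair and not only next neighbours. In 7 of these pairs both genes were below 1 RPKM, and in the other 5 a single gene was above. Some genes stand in more than 1 pair, so the pairs are not independent, and 57.1% of the 56 genes were below 1 RPKM.

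**Figure D5:**
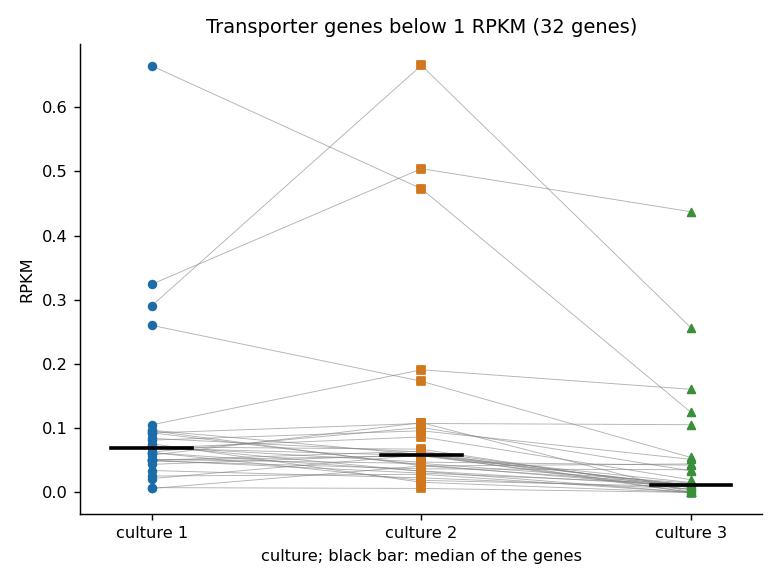
Each line joins the RPKM of 1 of the 32 transporters below 1 RPKM across the 3 cultures, and the black bars are the medians of the genes (0.069, 0.058 and 0.012 RPKM). Of the 32 lines, 28 are lowest in culture 3, where 7 genes are at 0.

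Genes that use, sense or control amino acids are given as counts beside the same backgrounds. These were 30.6% above and 60.8% below over all genes tested, and 42% and 47.8% over protein-coding genes. Of 42 measured genes of amino acid use, 29 were above 1 RPKM and 8 below in limma. The highest were the serine synthesis enzyme PSAT1 (265, 309 and 195 RPKM), asparagine synthetase ASNS (182, 157 and 93.9 RPKM) and the collagen prolyl hydroxylase subunit P4HA2 (45.5, 163 and 210 RPKM). The genes next to the carriers in the pathway were chosen after their values were seen. GCLM and GCLC, the subunits of the enzyme for the first step of glutathione synthesis from cysteine, had 9.80 ± 2.01 and 3.70 ± 0.68 RPKM (SD, n = 3). Of the arginine-using enzymes, NOS2 and NOS3 averaged 0.191 and 0.039 RPKM, but the arginases were higher. ARG2 had 24.1, 11.4 and 13.9 RPKM and overlaps another gene with reads. ARG1 had 2.41, 5.87 and 32.3 RPKM and was not decided (limma, adjusted p = 0.11).

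Of 26 measured genes of amino acid sensing, 21 were above 1 RPKM and 2 below. RRAGA, a GTPase that brings mTORC1 to the lysosome, had 49.1, 45.6 and 38.2 RPKM, LARS1, the leucyl-tRNA synthetase, 20.2, 43.0 and 29.9, and LAMTOR5, part of the lysosomal anchor of the GTPases, 26.8, 12.9 and 12.7 RPKM. All 15 regulators on the list were above 1 RPKM, led by the hypoxia factors HIF1A (119, 93.6 and 132 RPKM) and EPAS1 (158, 79.4 and 93.1). ATF4, which raises many carrier genes when amino acids are short, had 56.0, 86.0 and 70.0 RPKM. SLC7A11 is a known target of ATF4 and of NFE2L2, which had 29.8, 40.3 and 43.6 RPKM and overlaps another gene with reads.

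Of 9 measured transport partners, 5 were above 1 RPKM and 3 below. CD44, whose variant forms bind SLC7A11 in human tumour cells, had 70.9, 80.3 and 83.8 RPKM, and ARL6IP5, a binding partner of SLC1A1, had 78.5, 56.7 and 57.4 RPKM, while SLC1A1 itself averaged 0.040. The ubiquitin ligase RNF5, which lowers SLC1A5 and SLC38A2 in human breast cancer cells, had 6.92, 10.6 and 8.49 RPKM. Of 21 measured other amino acid carriers, 10 were above 1 RPKM and 7 below, led by the lysosomal histidine and peptide carrier SLC15A4 (10.9, 13.0 and 12.1 RPKM), the lysosomal cysteine carrier MFSD12 (5.56, 16.0 and 8.12) and the mitochondrial aspartate-glutamate carrier SLC25A13 (7.43, 11.6 and 8.68, with an overlapping gene). None of these genes passed the limma spread test.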

How the data were processed

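Per the labels' protocols, the miRNeasy kit gave total RNA for TruSeq V2 libraries. The authors deposited RPKM for 30477 genes in 3 columns, per the file headers, and susScr11 is the build in the submitters' processing notes; the aligner, counter, annotation and strand are not stated in these sources. RPKM times (listed length + 1 base) in kilobases fell on whole multiples of 1 step per column, within 1e-06 of a read for 100% of values, which gave the reads per gene and the depths. All 37 mitochondrial genes are listed at 0.

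Levels were tested on log2(RPKM + 0.5) with limma 3.58.1 in R 4.3.3 (trended, robust, two-sided, against 1 RPKM). For the spread test each gene's variance was divided by limma's prior variance (F test, upper tail). Both were also run on simulated data, with no outcome reported here. Those runs therefore do not show whether the spread test can detect spreads as small as those seen here, such as a log2 SD of 0.78 for SLC43A3. The p-values measure the spread between these samples together with that of other genes. Alternatives were other pseudocounts, levels, filters, scalings and variance models, voom weights, and each culture left out. Named with values are the transporters with a mean of at least 1 RPKM, and the 3 genes of highest mean in each list; others named were chosen after their values were seen. A few genes that stand in the counts are not reported here by name. The members and lists were chosen with earlier results of these data known. Figures used Python 3.11.15 with matplotlib 3.10.9.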

Additional observations from a re-analysis of the deposited data

How the results depend on the processing

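The counts of 19 transporters above and 32 below 1 RPKM stayed within 1.5 times under all alternatives run (other pseudocounts, levels of 0.5 and 2 RPKM, size factors, protein-coding scaling, no trend, voom weights, each culture left out, overlapped genes left out), except that 6 were below when only genes averaging 0.1 RPKM or more were tested, since the other low genes were then not tested. Under the 9 settings run gene by gene, the one reported included, 17 were above and 31 below in each. The calls lost were those of SLC7A7 above (limma, adjusted p = 0.057) and SLC1A3 below (0.13) without culture 3, and SLC38A10 above (0.15) without culture 2. SLC3A1 came below 1 RPKM with a pseudocount of 0.1 RPKM (limma, adjusted p = 0.011), with voom weights (chosen after seeing the data, 0.041) and without culture 3. The spread test called 0 transporters in every alternative run. In the reported setting it called 0 of all 10474 genes, so these counts do not set the transporters apart. The count with at least a 2-fold range was 4. At 1.5-fold it was 11 (55%, against 58.3% of all genes that averaged 1 RPKM or more), and at 3-fold 1 (5%, against 11.2%). The 2-fold count was 1 to 3 with a culture left out, 3 with size factors and 6 when scaled to protein-coding reads. For these settings no share over all genes was computed. Those 6 include SLC6A6 and SLC6A15, which averaged 1 RPKM only under that scaling. Of the 20, SLC7A5, SLC43A3, SLC6A17 and SLC38A6 reached it there, while SLC1A5 and SLC7A11 did not, and SLC1A5 did not with size factors. The median level moved with the pseudocount, to -2.01 at 0.1 RPKM and 0.21 at 1 RPKM, by construction. SLC3A2 exceeded SLC7A5 alone 9.79-fold. Weighted by reads, which favours long gene models, SLC1 held 13.4% in place of 17.7% SLC3 8.22% in place of 16.8% and SLC7 20.2% in place of 9.73%. Without overlapped genes SLC3 held 17.5%, and SLC6 5.73% in place of 7.51%. No paired analysis was possible because there is 1 group. Depth allowed genes with a few reads to be placed below 1 RPKM, and no difference between cultures was tested for them.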
